A study of Mus musculus with 6 samples.

Results

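The genes described here are the solute carrier genes that the arrays detected in RAW264.7 macrophages. A probe was taken where the gene name in the scanner output was a solute carrier symbol (Slc, a family number, a letter and a member number) and the spots were flagged as well above background throughout at least 1 of the groups. Of 347 genes with such a name on the array, 223 met the rule through 275 probes, 10 carriers, among them much-studied ones of glucose, lactate, iron and cystine, were left out by name, and 114 were neither. The comparison behind them took in 22183 features, that is, named genes each read by its brightest probe and probes without a gene name. Detection, which used the same signals as the comparison, chose the members, so a carrier seen in only 1 group had its direction set by the choice and is given as a bound.

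RAW264.7 is an established mouse macrophage line. The 6 samples were cells kept in DMEM medium as the control, and cells given AEPS, a polysaccharide from the root of Actinidia eriantha, at 50 µg/ml, both collected at 4 h with 3 samples per group. The cells of both groups were otherwise of the same line and in the same serum-containing medium with antibiotics. Total RNA was turned into Cy3-labelled cRNA and read on Agilent arrays in a single colour. In each group the values of replicates 1 and 2 were identical and were counted as 1 sample, so the fit rests on 2 distinct arrays per group, one control and one AEPS array on each of 2 slides. Nothing in the sources used here says that the samples came from separate cultures, and p-values therefore measure the spread among these arrays, which may be technical.

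Solute carriers are membrane proteins that move ions, metals, sugars, amino acids, nucleotides, vitamins and drugs across the plasma membrane and the membranes of organelles. Most work as exchangers or cotransporters that use an existing ion gradient, in contrast to pumps and ABC transporters, which spend ATP. In macrophages, carriers supply phosphate, amino acids and sugars for activation, and move copper, zinc, iron and peptides across phagosome and lysosome membranes during defence against microbes.

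The 3 promoter sequences that follow belong to Slc31a2 and Slc20a1, which had the largest and the next largest rise among carriers measured on all 4 arrays, and to Slc37a2, a sugar phosphate carrier that fell. Each is the 250 bases before the transcription start in RefSeq's table for GRCm38.p6, read 5′ to 3′ on the gene's own strand, which is the plus strand for Slc31a2 and Slc20a1 and the minus strand for Slc37a2. Capitals mark matches, on either strand, to the metal response element core TGCNCNC, the E-box CACGTG or the AP-1 motif TGANTCA.
Slc31a2 chr4:62286179-62286428: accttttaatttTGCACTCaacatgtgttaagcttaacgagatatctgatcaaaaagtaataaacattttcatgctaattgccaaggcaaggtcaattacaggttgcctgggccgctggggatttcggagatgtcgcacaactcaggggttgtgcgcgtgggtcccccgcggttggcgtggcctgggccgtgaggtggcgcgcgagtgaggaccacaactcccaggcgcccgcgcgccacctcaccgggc
Slc20a1 chr2:129198523-129198772: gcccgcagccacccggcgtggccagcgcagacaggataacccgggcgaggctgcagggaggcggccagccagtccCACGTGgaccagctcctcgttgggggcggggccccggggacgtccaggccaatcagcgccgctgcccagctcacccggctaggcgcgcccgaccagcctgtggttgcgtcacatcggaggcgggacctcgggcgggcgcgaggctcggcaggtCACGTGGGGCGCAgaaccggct
Slc37a2 chr9:37255739-37255988: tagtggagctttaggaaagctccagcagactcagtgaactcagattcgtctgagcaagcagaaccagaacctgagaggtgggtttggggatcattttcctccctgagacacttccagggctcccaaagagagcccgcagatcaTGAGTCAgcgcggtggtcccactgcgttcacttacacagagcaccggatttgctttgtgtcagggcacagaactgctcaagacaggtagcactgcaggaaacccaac

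In the Slc31a2 window the TGCNCNC match began 238 bases before the start. RefSeq's span of Slc31a2 opens further upstream than this window, so the window does not precede every annotated transcript. The Slc20a1 window held E-box matches 175 and 22 bases before the start, and the one nearer the start ran into a TGCNCNC match on the minus strand. The Slc37a2 window held 1 AP-1 match, 107 bases before the start. Over the 300-base windows of all 32851 RefSeq promoters, which reach 50 bases past the start, TGCNCNC was found in 51%, the E-box in 7.15%, the AP-1 motif in 7.81%, the interferon response element in 3.44% and the NF-kB consensus in 8.46%. A promoter was matched for 174 members, of which 110 held TGCNCNC, 30 the E-box, 12 the AP-1 motif, 5 the interferon response element and 21 the NF-kB consensus. Among members that passed the test, the E-box was in 2 of 8 promoters of carriers that rose and 2 of 14 of those that fell, and TGCNCNC in 4 of 8 and 8 of 14. Members were counted if any of their windows held the motif, while the shares above are of single windows. Genes with several windows thus had more chances, and the counts cannot be set against those shares. A match is a run of letters and not a site of binding.

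The 75th percentile of the processed signal lay between 287 and 575 on the 4 arrays, between 55.4% and 58.7% of probes were well above background, and arrays correlated at 0.969 to 0.992. All 10 macrophage markers on the array, among them Csf1r, Cd68 and Itgam, were above background on every array, with summed scaled signals of 1207 and 1426 in control and 1074 and 1198 with AEPS. Of other cell types, epithelial markers were detected for 0 of 4 genes, B cell and fibroblast markers for 1 of 4 each, T cell markers for 3 of 5, endothelial markers for 2 of 3 and neutrophil markers for 3 of 3. Summed T cell marker signals were 34.1 and 28.8 in control and 25.1 and 18.9 with AEPS, and neutrophil marker signals 11.8 and 11.9 against 9.35 and 7.29; their part in the results was not tested. Because the arrays read bulk RNA, fewer cells with a transcript and less transcript per cell cannot be told apart.

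Of the 223 members, 212 were well above background on all 4 arrays, and 28 of these passed the test at an adjusted p of 0.05 (limma), 9 higher and 19 lower with AEPS. Of all 22183 features 10.2% passed, 5.77% higher and 4.42% lower. Among features measured on all 4 arrays 9.7% passed, 5.54% higher and 4.16% lower, against 13.2%, 4.25% and 8.96% of the carriers. The median log2 difference, AEPS minus control, was −0.11 over the carriers and −0.16 over all such features. Above 0 lay 78 of the 212 carriers and 37.6% of those features. Later counts of genes above or below 0 are to be set beside that share. All 28 had the same sign on both slides, and the largest gap between slides was 0.281, for Slc46a3. The test used these same arrays and favours genes with little spread, so this is no separate evidence. With the slide entered as a replicate block, 34 carriers rose and 53 fell, against 16.4% and 20.9% of the features measured on all 4 arrays. In either direction 37.3% of those features passed with the block, and 41% of the carriers. With 4 arrays the block fit leaves few residual degrees of freedom and so many features passed it that a pass there says little by itself. For single carriers below, the block's adjusted p is given only where it was under 0.05. In the authors' deposited value table, which has 3 distinct arrays per group, 42 carriers rose and 58 fell, against 19.2% and 18.8% of those features. An unadjusted p under 0.05 was found for 84 of the 212 carriers (39.6%) and for 33.9% of those features. Later class counts of carriers that passed, or had such a p, are likewise to be set beside the shares of those features. Scaling to the spike-in probes moved the median of those features to 0.44 and the split to 35 carriers higher and 2 lower, so directions are relative to the bulk of the array's probes, although each of the 28 kept its sign. The calls rest on both arrays of a group. Of the 28, 0 passed without the control array of replicates 1 and 2 (limma; all 28 had an unadjusted p under 0.05), and 1, Slc31a2, without that of replicate 3. Without either of the AEPS arrays 9 of the 28 passed. In these fits the lone array was assumed to vary like the others.

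**Figure D1:**
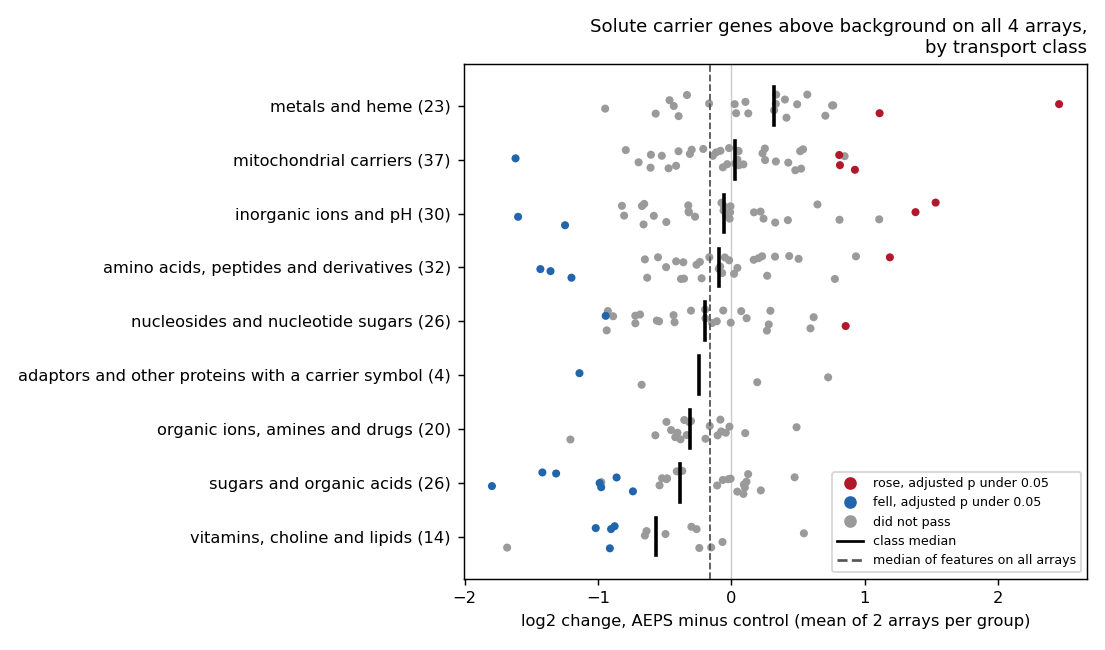
The horizontal axis gives the log2 difference between AEPS and control (mean of 2 arrays per group) for the 212 carriers measured on all arrays, 1 point per gene, grouped by transport class with the number of genes in brackets. Solid bars mark class medians, from −0.57 for vitamin, choline and lipid carriers to 0.32 for metal and heme carriers, and the dashed line is the median of all features measured on all 4 arrays, at −0.16; red and blue points passed the test.

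Metal and heme carriers had the highest class median, 0.32 over 23 measured genes, with 16 above 0, 2 that rose and none that fell (limma; 10 of the 23 had an unadjusted p under 0.05, and 5 fell in the authors' table). The median was 0.27 on slide 1, 0.29 on slide 2 and 0.26 in the pair of arrays found only in the authors' table, but 0.12 with normexp background correction and 0.92 with spike-in scaling, where the median of all features measured on all arrays was −0.20 and 0.44. With the replicate block 9 rose and 4 fell, against 16.4% and 20.9% of all features measured on all arrays.

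Slc31a2, the copper carrier of endosomes and lysosomes also called Ctr2, had scaled signals, in multiples of each array's 75th percentile, of 1.33 and 1.62 in control and 7.73 and 8.42 with AEPS. Both AEPS arrays lay far above both controls, a log2 change of 2.45 ± 0.16 (SE, n = 2 arrays per group, adjusted p = 0.0134, limma). It was read by 2 probes 838 bases apart (mm9), and the dimmer one gave 0.77, so the size depends on the probe. Slc31a1 (Ctr1), the high-affinity copper importer of the plasma membrane, lies 62.2 kb from Slc31a2 on chromosome 4. Its signals were 4.58 and 4.94 in control against 7.58 and 8.49, without overlap, and its log2 difference of 0.75 ± 0.14 missed the threshold (adjusted p = 0.0522) but passed with the replicate block (adjusted p = 0.0282). No TGCNCNC match lay in the 250 bases before the Slc31a1 start. RefSeq's span of Slc31a1 opens within that window, so the window does not precede every annotated transcript.

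Slc30a9 (ZnT9), which exports zinc from mitochondria, rose by 1.11 ± 0.19 (adjusted p = 0.0464), from 0.595 and 0.756 to 1.34 and 1.57. Its other probe, 8840 bases away, gave 0.13. The plasma membrane zinc exporter Slc30a1 differed by −0.33 ± 0.16 (adjusted p = 0.22). Of the 7 zinc exporters of family 30 measured, 5 lay above 0, including Slc30a7 of the Golgi at 0.41 ± 0.16 (adjusted p = 0.168, 0.0397 with the block), and the median was 0.40. Of the 10 zinc importers of family 39 measured, 7 lay above 0 and the median was 0.070. Slc39a1, an importer of the plasma membrane, had signals of 110 and 128 in control and 124 and 136 with AEPS, and Slc39a7, which releases zinc from the endoplasmic reticulum, 75.1 and 90.1 against 76.6 and 91.2. In both, the groups overlapped. Within the slides Slc39a1 was higher with AEPS by 0.16 and 0.091, and limma on the authors' deposited table gave 0.24 (adjusted p = 0.03). The importer Slc39a6 differed by 0.49 ± 0.14 (adjusted p = 0.1, 0.034 with the block). The magnesium carriers went in opposite directions, with Slc41a1 at 0.76 ± 0.14 (adjusted p = 0.0517) and Slc41a3 at −0.95 ± 0.19 (adjusted p = 0.0588), and both passed with the block (adjusted p = 0.0306 and 0.0278).

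Carriers of inorganic ions and protons held 30 measured genes, of which 2 rose and 2 fell, with a median of −0.058. Slc20a1 (PiT1), a sodium-dependent phosphate importer that some retroviruses use as a receptor, had signals of 24.7 and 24.2 in control and 70.2 and 71.0 with AEPS. The arrays of each group lay close together and the log2 change was 1.53 ± 0.12 (adjusted p = 0.0168). A second probe 7296 bases upstream gave 0.30. The paralog Slc20a2 (PiT2) stood at 4.81 and 4.69 against 4.51 and 4.95, overlapping groups with a difference of −0.0073 ± 0.13 (adjusted p = 0.973). Slc4a7 (NBCn1), which brings in sodium and bicarbonate and raises cytosolic pH, rose by 1.38 ± 0.16 (adjusted p = 0.026), from 3.43 and 3.75 to 8.59 and 10.1. Its neighbour in number, the bicarbonate carrier Slc4a8, gave −0.82 ± 0.45 (adjusted p = 0.275). The potassium chloride cotransporter Slc12a4 (KCC1) differed by 0.64 ± 0.18 (adjusted p = 0.0947, 0.0291 with the block).

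The carriers of this class that fell were Slc24a6 and Slc26a11. Slc24a6, renamed Slc8b1 in RefSeq, is the sodium calcium exchanger of the inner mitochondrial membrane. It had signals of 0.673 and 0.615 in control against 0.206 and 0.219 with AEPS, a fall of 1.60 ± 0.13 on the log2 scale (adjusted p = 0.0179). Its other probe, 962 bases away, gave −0.82, so the size depends on the probe. Slc24a5, the closest in number, is a potassium-dependent exchanger of intracellular vesicles and differed by 1.11 ± 0.27 (adjusted p = 0.0768, 0.0386 with the block). Slc26a11, a sulfate carrier, fell by 1.25 ± 0.17 (adjusted p = 0.0348), while Slc26a9, a chloride carrier, gave 0.81 ± 0.16 (adjusted p = 0.0541, 0.0306 with the block).

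Sugar and organic acid carriers held 26 measured genes, and 7 fell while none rose (limma; 9 had an unadjusted p under 0.05). Of all features measured on all arrays 4.16% fell, 5.54% rose and 33.9% had an unadjusted p under 0.05 (limma). The authors' table gave 10 that fell and none that rose, against 18.8% and 19.2% of those features. The class median was −0.39, or −0.25 and −0.34 within the slides. Slc5a3 (SMIT1), the sodium-coupled importer of myo-inositol, had the largest fall of all carriers measured on every array. Its signals were 1.24 and 1.35 in control and 0.347 and 0.401 with AEPS, a log2 change of −1.80 ± 0.15 (adjusted p = 0.0176), and its other probe gave −1.30. The family member nearest in number, the glucose-related carrier Slc5a4a, differed by 0.10 ± 0.35 (adjusted p = 0.857).

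Slc37a2 and Slc37a4 exchange sugar phosphates for phosphate across the endoplasmic reticulum membrane, and Slc37a4 brings glucose 6-phosphate to glucose-6-phosphatase. Slc37a2 went from 6.04 and 7.01 to 2.46 and 2.78, a fall of 1.31 ± 0.16 (adjusted p = 0.0281), and Slc37a4 from 16.9 and 17.6 to 8.60 and 8.95, a fall of 0.98 ± 0.13 (adjusted p = 0.0308). No array of one group reached the other in either gene. Slc37a1, by contrast, gave −0.11 ± 0.16 (adjusted p = 0.664). Slc45a4, of a family of proton-coupled sugar carriers, fell by 1.42 ± 0.15 (adjusted p = 0.0232), from 1.95 and 2.05 to 0.694 and 0.808, and its paralog Slc45a3 differed by −0.49 ± 0.15 (adjusted p = 0.114). Slc2a8 (GLUT8), an intracellular hexose carrier, fell by 0.86 ± 0.13 (adjusted p = 0.037). The high-affinity glucose importer Slc2a3 (GLUT3) differed by −0.41 ± 0.16 (adjusted p = 0.172, 0.0443 with the block). Slc13a2, a sodium-coupled carrier of citrate and succinate, fell by 0.99 ± 0.17 (adjusted p = 0.0477) at a dim signal of 0.105 and 0.0878 against 0.0523 and 0.0449. Slc16a12, a creatine carrier of the monocarboxylate family, fell by 0.74 ± 0.12 (adjusted p = 0.0456). Slc16a6, with a difference of 0.22 ± 0.17, and the sugar carrier Slc50a1, with −0.37 ± 0.15, did not pass.

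**Figure D2:**
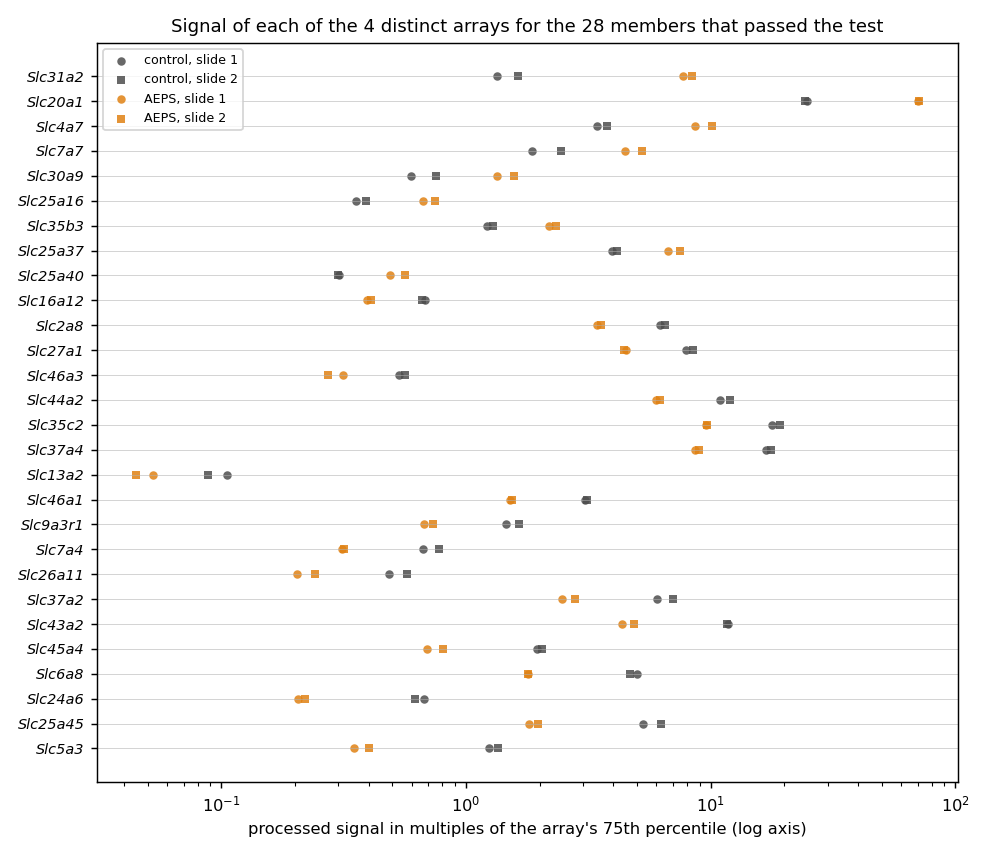
Each of the 28 carriers that passed is drawn with its scaled signal (processed signal divided by the array's 75th percentile, log axis) on each of the 4 distinct arrays, circles for slide 1 and squares for slide 2. For every gene the pair of control arrays (grey) and the pair of AEPS arrays (orange) stand apart, as for Slc31a2 with 1.33 and 1.62 against 7.73 and 8.42. The genes were chosen by the test on these same arrays, which favours such separation. Signals of different genes come from different probes and have no order.

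Carriers of amino acids, peptides and their derivatives held 32 measured genes, of which 1 rose and 3 fell, and the median was −0.090. Slc7a7 (y+LAT1), which pairs with the heavy chain Slc3a2 to export cationic amino acids in exchange for neutral ones, rose by 1.19 ± 0.20 (adjusted p = 0.0464). Its signals were 1.85 and 2.43 in control against 4.45 and 5.26. Slc3a2 itself had signals of 76.9 and 79.3 in control against 90.7 and 97.5, a difference of 0.27 ± 0.13 (adjusted p = 0.227). Other light chains among the members showed smaller differences: Slc7a6 (y+LAT2) gave −0.050 ± 0.12 and Slc7a8 −0.070 ± 0.16. Slc7a5 (LAT1), the importer of large neutral amino acids, gave 0.23 ± 0.15 from one probe and −0.46 from another. Light chains among the carriers left out by name are not covered.

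Slc43a2 (LAT4), a facilitative carrier of branched-chain amino acids and phenylalanine, went from 11.8 and 11.6 to 4.32 and 4.85, a fall of 1.36 ± 0.14 (adjusted p = 0.0222). The creatine importer Slc6a8 went from 4.99 and 4.66 to 1.79 and 1.78, a fall of 1.43 ± 0.13 (adjusted p = 0.0192). Slc7a4, a relative of the cationic amino acid carriers, fell by 1.20 ± 0.14 (adjusted p = 0.0285). Relatives nearest in number to these were closer to 0, with the nucleobase carrier Slc43a3 at 0.11 ± 0.15 and the glycine carrier Slc6a9 at −0.085 ± 0.18. The glutamine carriers did not pass: Slc38a2 (SNAT2) had 22.5 and 28.4 against 43.6 and 53.6, a difference of 0.93 ± 0.20 (adjusted p = 0.0641, 0.0273 with the block), Slc38a1 gave 0.33 ± 0.13 (adjusted p = 0.168), and Slc1a5 (ASCT2) −0.018 ± 0.16 (adjusted p = 0.945).

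The lysosomal carriers of histidine and small peptides, Slc15a3 and Slc15a4, had signs opposite to each other. Slc15a3 had signals of 3.75 and 5.13 in control and 6.74 and 8.38 with AEPS, a difference of 0.77 ± 0.23 (adjusted p = 0.105). Slc15a4, which also holds the endosomal Toll-like receptor adaptor TASL, had 30.3 and 33.8 against 19.3 and 21.6, a difference of −0.65 ± 0.15 (adjusted p = 0.0687). Neither passed, and both passed with the replicate block (limma, adjusted p = 0.0295 and 0.029). With spike-in scaling Slc15a3 gave 1.38 and Slc15a4 −0.044.

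All 37 mitochondrial carriers of family 25 among the members were measured on every array, and 3 rose while 1 fell. Their median was 0.029 and changed sign between slides (0.032 and −0.056), and 19 lay above 0. Slc25a37 (mitoferrin 1), which brings iron into mitochondria, rose by 0.81 ± 0.14 (adjusted p = 0.0454), from 3.96 and 4.13 to 6.72 and 7.50, although a probe 42777 bases away gave 0.066. Its paralog Slc25a28 (mitoferrin 2) had 8.84 and 10.4 against 5.26 and 5.86, a difference in the other direction of −0.79 ± 0.16 (adjusted p = 0.0576, 0.0282 with the block). Slc25a40, a mitochondrial glutathione carrier, rose by 0.81 ± 0.14 (adjusted p = 0.0482), whereas its close relative Slc25a39 gave −0.61 ± 0.18 (adjusted p = 0.111, 0.0318 with the block). Thus both pairs of related carriers had signs opposite to each other.

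Slc25a16, a carrier linked to mitochondrial coenzyme A, rose by 0.93 ± 0.14 (adjusted p = 0.0406), from 0.353 and 0.392 to 0.669 and 0.746. Slc25a33, which carries pyrimidine nucleotides, differed by 0.85 ± 0.18 (adjusted p = 0.0634, 0.0276 with the block), and the related Slc25a36 by 0.089 ± 0.17. Slc25a45, a little-studied member, had one of the larger falls among all carriers. Its signals were 5.30 and 6.29 in control and 1.80 and 1.97 with AEPS, a log2 change of −1.62 ± 0.16 (adjusted p = 0.0214), while the branched-chain amino acid carrier Slc25a44 gave −0.14 ± 0.13. The ornithine carrier Slc25a15 gave −0.018 ± 0.15. The groups overlapped for the adenine nucleotide exchangers Slc25a5 and Slc25a4, at 0.053 ± 0.16 and −0.083 ± 0.20, and for the phosphate carrier Slc25a3, at −0.032 ± 0.14.

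Nucleoside and nucleotide sugar carriers held 26 measured genes with a median of −0.20, and 1 rose and 1 fell. The median was −0.16 and −0.34 within the slides, −0.33 without the control array of replicates 1 and 2, and −0.098 in the authors' table without its control replicate 2 column. The sulfate donor PAPS is carried into the Golgi by Slc35b2 and Slc35b3, and these differed in sign. Slc35b3 rose by 0.86 ± 0.13 (adjusted p = 0.0394), from 1.22 and 1.28 to 2.18 and 2.34, while Slc35b2 had 38 and 39.2 against 23.5 and 24.5, a difference of −0.68 ± 0.13 just outside the threshold (adjusted p = 0.0507, 0.0287 with the block). Slc35c2, a Golgi carrier tied to fucosylation, fell by 0.94 ± 0.13 (adjusted p = 0.0338). Slc35b1, which exchanges ATP and ADP across the endoplasmic reticulum membrane, gave −0.0056 ± 0.15, and Slc35e4, whose substrate is not settled, −0.93 ± 0.18 (adjusted p = 0.0564, 0.0277 with the block). Slc29a1 (ENT1), the nucleoside carrier of the plasma membrane, had a value on 1 control array and both AEPS arrays, because a spot was flagged, and differed by −0.72 ± 0.19 (adjusted p = 0.111). The lysosomal Slc29a3 (ENT3) differed by −0.062 ± 0.13.

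Vitamin, choline and lipid carriers had the lowest median, −0.57 over 14 measured genes, of which 4 fell, none rose (limma; 7 had an unadjusted p under 0.05) and 1 lay above 0. In the authors' table the median was −0.36, and 5 fell and 1 rose. Slc46a1, the proton-coupled folate importer, went from 3.07 and 3.11 to 1.51 and 1.54, a fall of 1.02 ± 0.12 (adjusted p = 0.0286). Its lysosomal relative Slc46a3 fell by 0.90 ± 0.14 (adjusted p = 0.0426), whereas the reduced folate carrier Slc19a1 gave −0.15 ± 0.15 (adjusted p = 0.515). Slc44a2, a choline carrier-like protein, went from 10.9 and 12 to 5.97 and 6.18, a fall of 0.91 ± 0.13 (adjusted p = 0.037). The choline carrier Slc44a1 was read by 4 probes, which gave −1.68 to 0.37 and thus no single direction, and the brightest gave −0.64 ± 0.15 (adjusted p = 0.0708, 0.0302 with the block). Slc27a1 (FATP1), which takes up long-chain fatty acids, fell by 0.88 ± 0.13 (adjusted p = 0.0369). The one carrier of the class above 0 was Slc33a1, which brings acetyl-CoA into the endoplasmic reticulum, at 0.54 ± 0.14 (adjusted p = 0.0823, 0.0335 with the block). Slc23a3, of the ascorbate carrier family, varied between its control arrays: it had 0.0741 and 0.391 in control against 0.0549 and 0.0514, and its difference of −1.68 ± 0.85 did not pass (adjusted p = 0.246).

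Carriers of organic ions, amines and drugs held 20 measured genes, of which none passed (limma; 7 had an unadjusted p under 0.05, and with the block 1 rose and 4 fell), 2 lay above 0 and the median was −0.31. Of all features measured on all arrays 33.9% had an unadjusted p under 0.05 (limma), and with the block 16.4% rose and 20.9% fell. The class median was −0.17 with quantile normalization and −0.13 in the authors' table, or −0.082 there without the AEPS replicate 1 column. Slc10a1 (NTCP), known as the bile acid importer of hepatocytes, gave signals of 859 and 1100 in control and 728 and 794 with AEPS, a difference of −0.35 ± 0.18 (adjusted p = 0.248) that was −0.013 in the authors' table. Slc6a12, which carries betaine and GABA, had 136 and 153 against 97.9 and 109, a difference of −0.49 ± 0.15 (adjusted p = 0.107, 0.0344 with the block). Slc10a7, a relative of the bile acid carriers, differed by −1.21 ± 0.24 (adjusted p = 0.0564, 0.0274 with the block). Members of family 22, which holds organic cation and carnitine carriers among others, lay below 0 in 8 of 9 cases, and none passed.

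Among the 4 proteins that carry a carrier symbol without being carriers, Slc9a3r1 (NHERF1), a scaffold that anchors membrane transporters to the actin cytoskeleton, fell by 1.14 ± 0.14 (adjusted p = 0.0298). Its relative Slc9a3r2 (NHERF2) differed by −0.67 ± 0.18 (adjusted p = 0.087, 0.0288 with the block), Slc4a1ap by 0.19 ± 0.15 and Slc7a6os, which lies opposite Slc7a6, by 0.72 ± 0.16 (adjusted p = 0.0695, 0.0282 with the block).

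**Figure D3:**
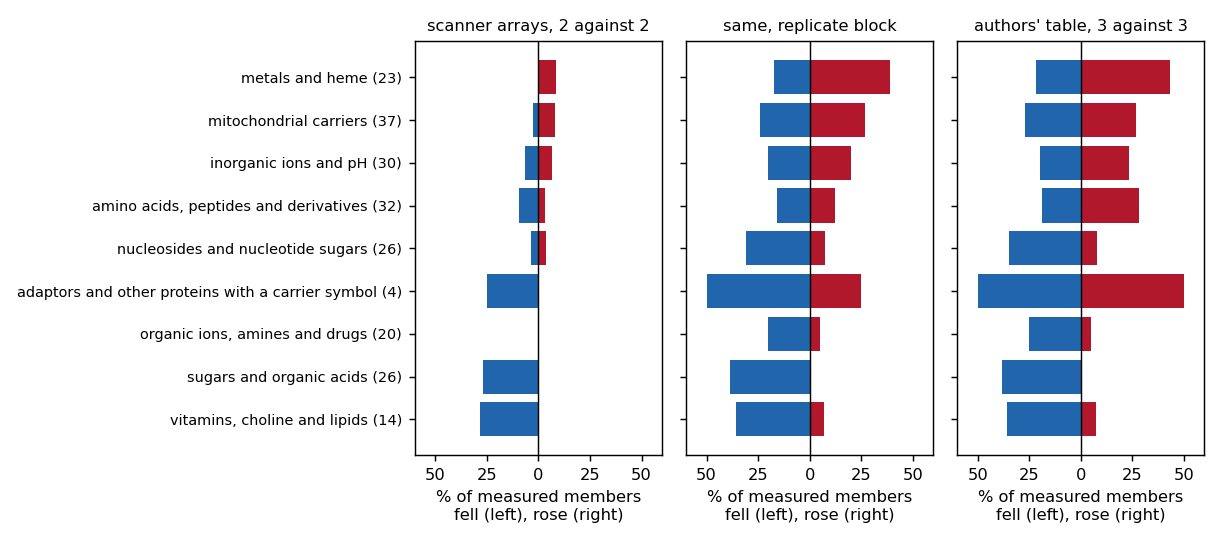
Bars give the percentage of the measured members of each class (number in brackets) that fell (left, blue) or rose (right, red) at an adjusted p of 0.05 in the fit of the 4 scanner arrays, in the same fit with the slide as a replicate block, and in the authors' table. Sugar and organic acid carriers had 7, 10 and 10 that fell and none that rose. Metal and heme carriers had 2, 9 and 10 that rose and 0, 4 and 5 that fell.

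The replicate 3 columns of the authors' table matched no scanner file and give a pair of arrays that took no part in the scanner fit. In that pair all 28 carriers differed in the direction they had on the scanner arrays, as did 1997 of the 2003 features that passed (99.7%). Slc31a2 differed by 2.07 there, Slc20a1 by 1.45, Slc4a7 by 1.28, Slc5a3 by −1.71 and Slc25a45 by −1.56. The smallest differences of the 28 in that pair were 0.54 for Slc35b3 and −0.54 for Slc16a12.

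**Figure D4:**
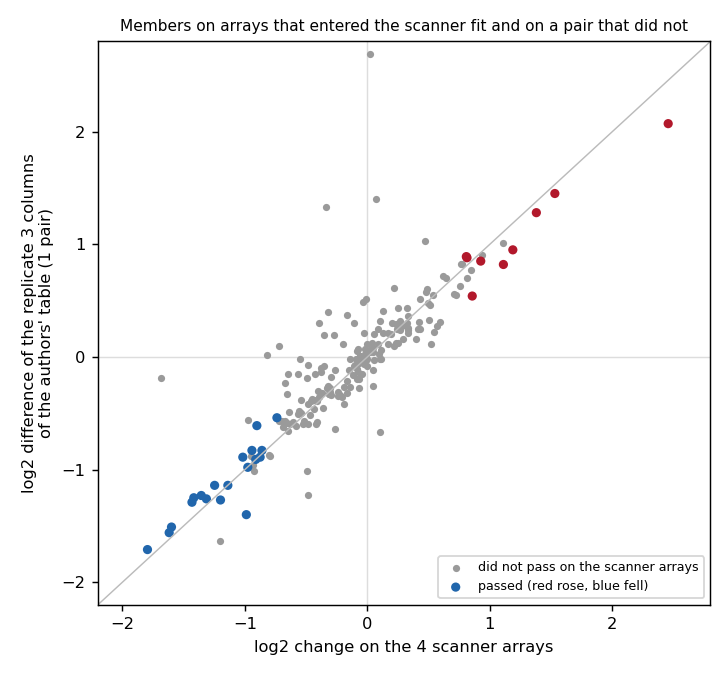
Each point is 1 of the 212 carriers, with its log2 difference on the 4 scanner arrays on the horizontal axis and its log2 difference in the replicate 3 columns of the authors' table, a single pair of arrays, on the vertical axis. The 28 carriers that passed on the scanner arrays (red rose, blue fell) lie in the lower left and upper right, with Slc31a2 at 2.45 and 2.07.

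Of the other 11 members, 4 were above background in only 1 group. Slc16a9, a monocarboxylate family member, was below background on both control arrays and higher with AEPS by at least 2.23-fold, its measured signals being 0.0211 and 0.0333 against 0.0822 and 0.109. Its log2 difference of 1.84 was 0.12 with normexp background correction. Slc34a3, a phosphate carrier, was lower with AEPS by at least 2.65-fold, the sodium proton exchanger Slc9a2 at least 1.73-fold, and the vesicular zinc carrier Slc30a3 at least 1.63-fold. Detection in the brighter group chose these 4, so no test is given for them. Each bound sets the brighter group's mean against the dimmer group's mean, in which a signal under that of the dimmest detected probe on its array was raised to it. The bounds apply to the processed signal only, and with normexp background correction the Slc16a9 difference lay below its bound. The remaining 7 were above background on 1 array of the dimmer group. They were Slc36a3, Slc1a6, Slc4a3, Slc26a1, Slc39a8, Slc35f1 and Slc47a2, and they too are given without a test. The drug exporter Slc47a2 (MATE2) had signals of 0.115 and 0.148 in control and 0.0355 and 0.0377 with AEPS, of which 1 AEPS array was above background. Slc39a8 (ZIP8), an importer of zinc and manganese, differed by 0.82 on the log2 scale, a value that was −0.075 with normexp background correction.

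At the edge of detection, Slc9a2, with signals between 0.0254 and 0.065, was among the dimmest members taken. Just outside was Slc35f3, at 0.45 and 0.0369 in control and 0.0688 and 0.013 with AEPS, which was above background on 1 array of each group. Of the 114 carriers not taken, 29 were above background on at least 1 array and 85 on none. At the edge of the test, Slc25a40 and Slc13a2 lay just inside the threshold, and Slc35b2, Slc41a1 and Slc31a1 just outside.

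For 47 members more than 1 probe was detected, and the range between a gene's probes had a median of 0.27 on the log2 scale. It was under 0.5 for 37 members and over 1 for 5, namely Slc44a1, Slc31a2, Slc35e1, Slc20a1 and Slc12a5. In Slc35e1, an orphan relative of the nucleotide sugar carriers, probes 3680 bases apart (mm9) gave 0.69 and −0.54. The probes of Slc31a2, 0.77 and 2.45, lay 838 bases apart, and those of Slc5a3, −1.30 and −1.80, 7915 bases apart.

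Other transport genes were counted as a setting for the carriers. The lists were chosen with earlier results of these data known. Of all features measured on all arrays, 5.54% rose and 4.16% fell. Of 25 genes with an ABC family symbol measured on all arrays, not all of which are transporters, 3 rose and 1 fell. The cholesterol exporter Abca1 rose by 2.55 ± 0.13 (adjusted p = 0.00847, limma), and Abcc1 and Abce1 rose. Abcg1, which also exports cholesterol, fell by 2.25 ± 0.13 (adjusted p = 0.0104, limma). Of 17 subunits of the vacuolar proton pump 1 rose (Atp6ap2), and of 12 P-type ion pumps 1 rose, the plasma membrane calcium pump Atp2b1 at 1.75 ± 0.15 (adjusted p = 0.0182). Of 17 partner proteins and related carriers outside the Slc names, Mfsd2a rose and Sfxn3 fell. Among 18 regulators of carrier genes and genes that report on them, measured on all arrays, 6 rose, namely Myc, Nfe2l2, Mtf1, Hif1a, Mlxip and the metallothionein Mt2, and Txnip fell. The metallothionein Mt1 differed by −0.18 ± 0.13 (adjusted p = 0.377), and Arrdc3, of the same list, was above background only in control. Mtf1, which binds metal response elements, rose by 1.32 ± 0.20 (adjusted p = 0.0406) and Myc, which binds the E-box, by 2.86 ± 0.13 (adjusted p = 0.00744). Whether either bears on Slc31a2 or Slc20a1 was not tested.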

How the data were processed

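Each deposited scanner file holds spot intensity values from Agilent Feature Extraction 10.7.1.1, per the file headers: a background-subtracted processed signal, the mean signal, the local background and flags. The authors' deposited value table is on a scale close to log2, with a median of 4.71 in each column and the exact offset not given in the sources used here. Its replicate 1 columns matched the shared files of replicates 1 and 2, its replicate 2 columns the files given as replicate 3, and its replicate 3 columns none.

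The processed signal was taken to log2, and the 75th percentile of an array's non-control spots was subtracted from each of its values. Spots flagged as outliers were set to missing, and a gene was read by its brightest tested probe. Groups were compared with limma 3.58.1 in R 4.3.3 (lmFit, eBayes), with Benjamini-Hochberg adjustment over all 22183 features, and errors are limma's SE. The calculation was tested on simulated data. Alternatives were other background corrections, scalings, filters and probe rules, the replicate block, the authors' table and leaving out each array. The arrays' number limits precision.

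Replicate numbers pair the samples: deviations from group means correlated at 0.56, 0.37 and 0.42 for same-numbered columns of the table, against -0.49 to 0.22 for others, and at 0.61 between arrays of a slide.

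The members, classes and lists were chosen with earlier results of these data known. Carriers are named where they had the 12 largest rises or falls, the 4 largest bounds each way, the 2 brightest signals of a class, a place in a short list of well-known carriers, or the number nearest to one of the first kind (the lower where 2 were as near). Others were named after their values were seen. Positions of probes are in mm9, per the file headers, and promoters come from RefSeq's table for GRCm38.p6.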

Additional observations from a re-analysis of the deposited data

How the results depend on the processing

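The number of carriers that passed (28, with 9 higher and 19 lower) depended on the estimate of the spread and on scaling. It was 52 (21 and 31) with normexp background correction, 56 (20 and 36) with quantile normalization, 71 (28 and 43) with the percentile taken over probes detected on all arrays, and 37 with spike-in scaling (35 higher and 2 lower). The replicate block, which pairs the arrays of a slide, gave 87 (34 and 53), the values deposited by the authors gave 100 (42 and 58) and these with the block 127 (57 and 70). With no filter on dim probes 0 carriers passed (0 higher and 0 lower, limma), and 69 had an unadjusted p under 0.05. Leaving out 1 scanner array gave 1 to 11 (0 to 3 higher and 0 to 8 lower), with 1 when either control array was left out, and leaving out 1 column of the table gave 70 to 91 (27 to 40 higher and 43 to 53 lower). Over all features 2260 passed, and 4384, 4065, 5693 and 3843 did under the scalings in the order above, 8249 with the block, 8235 in the table, 11863 with both, 91 with no filter, 169 to 1398 without 1 scanner array and 5725 to 7247 without 1 column. All 28 kept their sign under every alternative run. All 28 passed with the block and in the table, 27 with normexp (not Slc25a40), 25 with quantile normalization (not Slc13a2, Slc25a40 and Slc26a11), 26 with the mean of a gene's probes (not Slc25a37 and Slc30a9) and 11 with spike-in scaling. A rule asking for detection in both groups kept 212 of the 223 members.

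Apart from spike-in scaling, class medians ranged over the alternatives from 0.12 to 0.36 for metal and heme carriers, -0.46 to -0.19 for sugar and organic acid carriers, -0.57 to -0.29 for vitamin, choline and lipid carriers, and -0.070 to 0.14 for mitochondrial carriers; with spike-in scaling they were 0.92, 0.21, 0.039 and 0.63. They ranged from -0.36 to -0.082 for carriers of organic ions, amines and drugs, -0.33 to -0.098 for nucleoside and nucleotide sugar carriers, -0.18 to -0.051 for amino acid carriers, -0.12 to 6.4e-05 for inorganic ion carriers and -0.34 to -0.10 for adaptors, with 0.29, 0.41, 0.51, 0.55 and 0.36 under spike-in scaling. Carriers that did not pass and were near 0 changed sign under some settings. Spike-in scaling gave 0.25 for Slc10a1, 0.45 for Slc19a1, 0.59 for Slc1a5, 0.60 for Slc20a2, 0.59 for Slc25a15, 0.57 for Slc25a3, 0.52 for Slc25a4, 0.46 for Slc25a44, 0.077 for Slc29a1, 0.54 for Slc29a3, 0.19 for Slc2a3, 0.27 for Slc30a1, 0.60 for Slc35b1, 0.50 for Slc37a1, 0.12 for Slc45a3, 0.24 for Slc50a1, 0.12 for Slc6a12, 0.52 for Slc6a9 and 0.55 for Slc7a6. Normexp gave 0.068 for Slc1a5, 0.019 for Slc20a2, 0.068 for Slc25a3, -0.13 for Slc25a36, 0.052 for Slc35b1, -0.075 for Slc39a8, -0.21 for Slc5a4a and 0.0022 for Slc7a6. Quantile normalization gave 0.020 for Slc10a1, 0.13 for Slc25a15 and 0.11 for Slc29a3. The mean of the probes gave 0.090 for Slc20a2, 0.21 for Slc25a3 and -0.12 for Slc7a5. The table, with and without the block, gave 0.030 for Slc1a5, 0.12 for Slc25a15, 0.097 for Slc25a3, 0.033 for Slc25a4 and 0.073 for Slc29a3. Without 1 array or column, values ranged from -0.53 to 0.012 for Slc10a1, -0.12 to 0.086 for Slc1a5, -0.074 to 0.060 for Slc20a2, -0.14 to 0.24 for Slc25a15, -0.13 to 0.13 for Slc25a3, -0.041 to 0.39 for Slc25a36, -0.25 to 0.13 for Slc25a4, -0.070 to 0.18 for Slc25a5, -0.12 to 0.20 for Slc29a3, -0.11 to 0.097 for Slc35b1, -0.24 to 0.026 for Slc37a1, -0.11 to 0.16 for Slc39a7, -0.29 to 0.49 for Slc5a4a and -0.24 to 0.073 for Slc6a9. Apart from the settings above, the cause of these changes was not tested. Signals near background, such as those of Slc13a2, Slc23a3 and Slc39a8, limit what 2 arrays per group can show.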
